A study of Caenorhabditis elegans with 12 samples.

Results

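Transcript levels at the 2 array codes of a Caenorhabditis elegans strain without hlh expression constructs were compared on 6 arrays, 3 with title code 4 and 3 with title code 3, out of 12 arrays in all. The arrays were selected by strain and title code. In this strain, the marker strain, the only transgenes named are the reporter egl-15::gfp and the transformation marker pRF4, and both codes share them. The other 6 arrays, at codes 1 and 2, came from the HLH strain, which carried the same reporter and marker together with pHS::hlh-8 and pHS::hlh-2. By the design text, each genotype was examined in heat-shocked and not heat-shocked worms, with biological replicates numbering 3. The labels do not say which code was heat shocked, so values are given by code. No source used here gives the worms' age or the temperature and length of any heat shock. Titles further number the sets 1, 2 and 3, and a code 4 array was compared with the code 3 array of its set. Values in a series below run over sets 1, 2 and 3, first at code 3 and then at code 4.

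Molecular chaperones hold or refold proteins that have lost their shape. In the nematode, as in other animals, the transcription factor HSF-1 drives a fast rise of small heat shock proteins and of Hsp70 when proteins unfold in the cytosol, and the genes of the hsp-16 family, which are close to silent in unstressed worms, are its best known targets. The endoplasmic reticulum has a separate unfolded protein response, which acts through factors such as xbp-1 and raises the lumenal Hsp70 gene hsp-4. pRF4 carries a dominant allele of the collagen gene rol-6 that makes worms roll, so it shows which worms took up the DNA.

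The main difference lay in chaperone genes, and it was large in few transcripts. Of 12328 probe sets tested, 19 (0.154%) passed an adjusted p of 0.05 in limma's test with Benjamini-Hochberg adjustment. Code 4 was higher for 15 of them (0.122%) and lower for 4 (0.0324%). The 15 comprised probe sets for hsp-16 genes, hsp-70 and 2 further Hsp70-type genes, hsp-4, hsp-17, hsp-110, the fatty acid desaturases fat-5 and fat-6, the lipid droplet protein gene plin-1, wbp-2, and 1 probe set of 2 genes with no function given here. The 4 that fell were 2 probe sets of the nspb family, K08D12.3 and lips-6. Of the 19, 12 had 1 annotated gene each and 7 were listed for several genes. The arrays of the 2 codes did not overlap for 18 of the 19, which a test on these same arrays had selected. Across all tested probe sets code 4 lay wholly above code 3 for 2.95% and wholly below for 2.4%. All 19 had 1 direction in the 3 sets, which a test with the set as a term favours, and among all tested probe sets 16.4% were higher and 16.2% lower at code 4 in all 3.

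**Figure D1:**
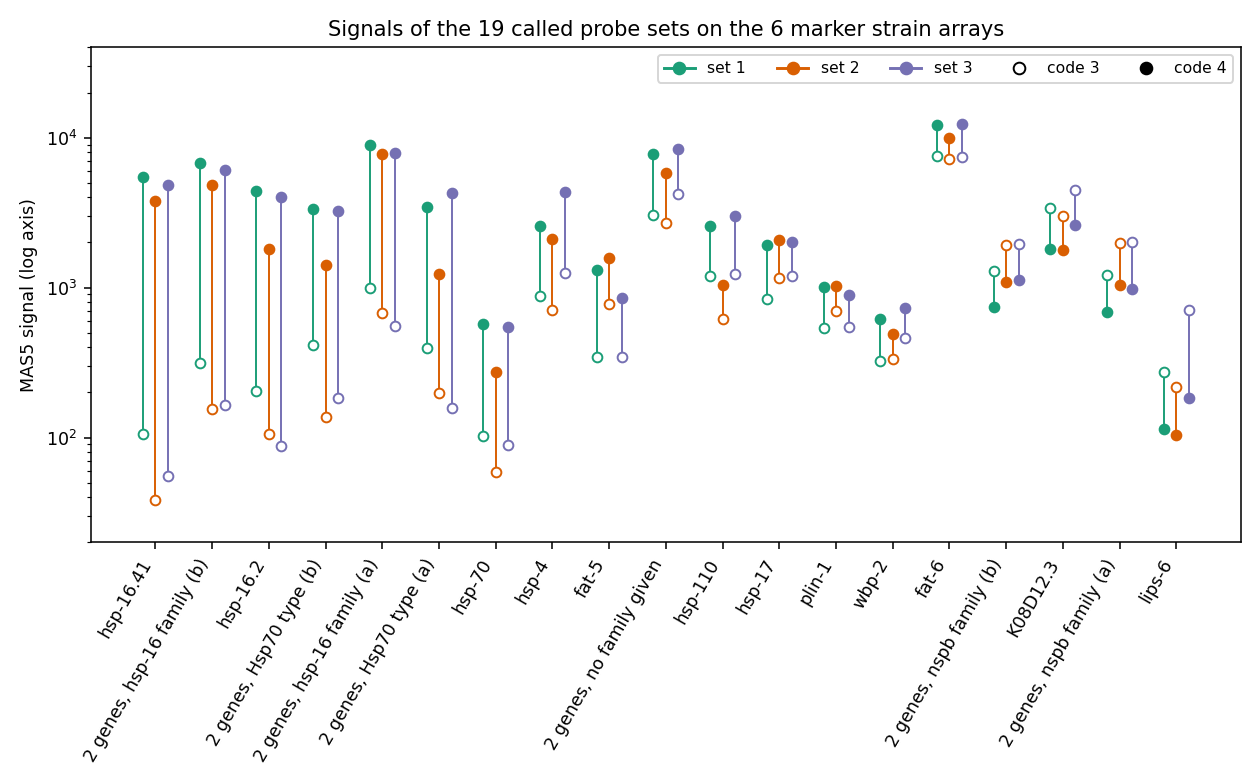
Signal of the called probe sets on each of the 6 marker arrays (log axis, array signal units), open circles for code 3 and filled circles for code 4, with arrays of 1 set joined by a line. All 15 probe sets that rose have lines that climb in every set and all 4 that fell have lines that drop, and hsp-16.41 climbs most, from 38.4 to 105.5 at code 3 up to 3789.4 to 5505.3 at code 4.

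The small heat shock proteins of the hsp-16 family bind unfolding proteins and keep them from clumping. The signal of hsp-16.41 on chromosome V was 105.5, 38.4 and 55.5 at code 3, and 5505.3, 3789.4 and 4859.4 at code 4. Every code 4 array was thus far above every code 3 array, and the means were 66.5 ± 34.9 and 4718 ± 867 (SD, n = 3). The log2 difference was 6.26 ± 0.34 (SE), a 76.7-fold rise (limma adjusted p = 8.79e-07). The code 3 signals lie below their arrays' medians of 180.3 to 200.8, and the gene passed the brightness filter only through arrays of codes 4 and 2, so the size of the fold rests on dim values. With values under the 25th percentile (65.8) raised to it, the difference was 5.92. The signal of hsp-16.2, also on chromosome V, was 204.3, 105.5 and 88.0 at code 3 and 4407.5, 1813.8 and 4021.2 at code 4. The set 2 array at code 4 was the lowest of its group and still above all 3 code 3 arrays. The gene rose by 4.68 ± 0.25 on the log2 scale, or 25.7-fold (limma adjusted p = 8.79e-07). The 2 genes are next to each other in the gene order of assembly WBcel235.

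Of the 8 hsp-16 genes in the gene table, these 2 had a tested probe set of their own. For hsp-16.20 and hsp-16.21 the probe sets did not pass the brightness filter. The other 4 share 2 tested probe sets, each listed for 2 genes, so the share of each gene is not separable. The first, marked (b) in the plot of signals, read 313.1, 155.7 and 165.3 at code 3 and 6791.5, 4800.5 and 6081.9 at code 4, a log2 rise of 4.86 ± 0.31 (limma adjusted p = 3.16e-06). The second, marked (a), read 992.1, 673.2 and 557.0 and then 8871.4, 7837.2 and 7948.2, a log2 rise of 3.51 ± 0.21 (limma adjusted p = 1.91e-06). The groups were apart in both.

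Of the other small heat shock proteins on the list, 9 genes were tested and hsp-17 was the only one that passed. Its signal was 834.9, 1157.2 and 1203.1 at code 3 and 1924.0, 2076.5 and 2020.7 at code 4, with the code 4 arrays close together and above all code 3 arrays. The rise was 0.93 ± 0.13 on the log2 scale, or 1.91-fold (limma adjusted p = 0.00927). The median over the 9 genes was 0.21, with 7 higher and 2 lower at code 4. Over all 9418 tested genes, each by its brightest probe set, the median was -0.001 and 49.8% were higher. sip-1, a small heat shock protein of embryos, had a log2 difference of 0.38 ± 0.20, and hsp-25 had 0.21 ± 0.11 (limma adjusted p = 0.726 and 0.727). hsp-43 had 0.25, hsp-12.1 -0.21, ZK1128.7 0.13, hsp-12.2 0.04 and Y55F3BR.6 -0.004. hsp-12.3 had 0.62 with an SE of 0.59, since its code 3 signal ran from 18.9 to 333.0.

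The ATP-driven Hsp70 chaperones refold proteins, and the Hsp110 family assists them by exchanging their nucleotide. hsp-70, an Hsp70 gene on chromosome I, read 102.4, 58.8 and 88.9 at code 3 and 574.9, 273.9 and 549.9 at code 4. The lowest code 4 array exceeded the highest code 3 array, and the gene rose by 2.45 ± 0.25 on the log2 scale, or 5.45-fold (limma adjusted p = 0.000678). Its code 3 signals too were below the array medians, and it passed the filter only through arrays of codes 4 and 2. 2 probe sets shared by a pair of neighbouring Hsp70-type genes on chromosome II behaved in the same direction. The first, marked (a), read 397.8, 197.2 and 157.8 at code 3 and 3431.7, 1237.0 and 4251.2 at code 4, a log2 rise of 3.50 ± 0.38. The second, marked (b), read 413.2, 136.9 and 183.9 and then 3362.7, 1413.5 and 3259.5, a log2 rise of 3.51 ± 0.40. Both had their lowest code 4 value in set 2 (limma adjusted p = 0.00094 and 0.00154).

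hsp-110 on chromosome III was measured by 2 probe sets of 1 gene. On the dimmer of them the signal was 1203.4, 618.4 and 1238.8 at code 3 and 2591.8, 1042.8 and 2993.6 at code 4, a log2 rise of 1.04 ± 0.15 (limma adjusted p = 0.00941). This was the only called probe set whose groups overlapped, because the set 2 array at code 4 was below the set 1 and set 3 arrays at code 3. The brighter probe set read 3005.6, 1624.5 and 2799.6 and then 5177.7, 2803.5 and 4715.2, a log2 difference of 0.77 ± 0.15 that did not pass (limma adjusted p = 0.0958). Both probe sets were higher at code 4 in all 3 sets.

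The constitutive cytosolic chaperones differed less and did not pass the test. hsp-1, the main constitutive Hsp70, read 7583.9, 3568.8 and 9530.3 at code 3 and 9298.7, 4819.1 and 11479.7 at code 4, a log2 difference of 0.33 ± 0.16 (limma adjusted p = 0.7). The brighter probe set of hsp-90, which encodes the cytosolic Hsp90, had a log2 difference of 0.41 ± 0.10 (limma adjusted p = 0.277). A dimmer probe set of hsp-90 had 0.57 ± 0.13 (limma adjusted p = 0.212). The set 2 arrays were the lowest of their code in both genes, and the groups overlapped in both. stc-1, an Hsp70-like gene, had -0.06. The list of cytosolic Hsp70, Hsp110 and Hsp90 genes had 5 tested members with a median of 0.41, 4 of them higher at code 4 in all 3 sets.

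Helpers of these chaperones were tested as further lists. Of 11 co-chaperones of Hsp70 and Hsp90, none passed, 8 were higher at code 4, and the median was 0.29. An unadjusted p under 0.05 was reached in the higher direction by 6 of the 11, against 3.42% of all tested genes. They included sti-1, which bridges Hsp70 and Hsp90 (0.67 ± 0.17), bag-1, a nucleotide exchange factor (0.64 ± 0.17), cdc-37, which brings kinases to Hsp90 (0.55 ± 0.17), and ahsa-1, an activator of Hsp90 (0.53 ± 0.14). Their limma adjusted p lay between 0.323 and 0.478. Of 13 genes of the chaperonin and prefoldin, which fold actin and tubulin, 9 were higher, none passed, and the median was 0.18. Of 25 DnaJ genes, which encode J-domain partners of Hsp70, 13 were higher and 12 lower, with a median of 0.005 and none past the test.

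A DnaJ gene gave the nearest miss in the lower direction among those named. On its brighter probe set dnj-13 read 2125.9, 1880.2 and 2044.4 at code 3 and 1368.1, 1022.8 and 1261.5 at code 4, with no overlap. The log2 difference of -0.74 ± 0.13 did not pass (limma adjusted p = 0.0585). A second probe set of dnj-13 had -0.59 ± 0.18 with overlapping groups (limma adjusted p = 0.465). dnj-12, another DnaJ gene, had 0.40 ± 0.12 (limma adjusted p = 0.477). The transcription factor gene hsf-1 read 181.2, 277.3 and 147.7 at code 3 and 275.3, 300.0 and 206.9 at code 4, a log2 difference of 0.40 ± 0.21 with overlapping groups (limma adjusted p = 0.727). hsb-1, which encodes a protein that binds HSF-1, had -0.06 and ddl-1 had -0.07.

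In the endoplasmic reticulum, hsp-4 rose. Its gene, on chromosome II, encodes a lumenal Hsp70 (BiP), and it read 875.8, 704.8 and 1245.1 at code 3 and 2574.5, 2119.5 and 4352.8 at code 4. The lowest code 4 value was above the highest code 3 value, and the log2 rise was 1.65 ± 0.20, or 3.14-fold (limma adjusted p = 0.00307). It was the only called gene of 24 tested genes of endoplasmic reticulum chaperones and the unfolded protein response. Of the 24, 20 were higher at code 4, 13 in all 3 sets and none lower in all 3, and the median was 0.14. An unadjusted p under 0.05 was reached by 7 in the higher and 0 in the lower direction. atf-4, a transcription factor of the integrated stress response, had 0.49 ± 0.13, and ckb-2, a choline kinase gene, had 0.58 ± 0.18. xbp-1 had 0.33 ± 0.10 on its brighter probe set, and these 3 did not pass (limma adjusted p from 0.387 to 0.478). A second probe set of xbp-1 had 0.22 ± 0.11 (limma adjusted p = 0.716). Of 15 mitochondrial chaperone and unfolded protein response genes 5 were higher and 10 lower, with a median of -0.07 and none past the test.

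No gene of the protein breakdown lists was called. The 32 proteasome genes divided evenly, 16 higher and 16 lower, with a median of -0.0003 and log2 differences between -0.24 and 0.25. Of 14 genes for ubiquitin, CDC-48 and autophagy 11 were higher, with a median of 0.10, led by the autophagosome gene lgg-2 at 0.24 ± 0.12 (limma adjusted p = 0.716). No gene of either list reached an unadjusted p under 0.05.

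**Figure D2:**
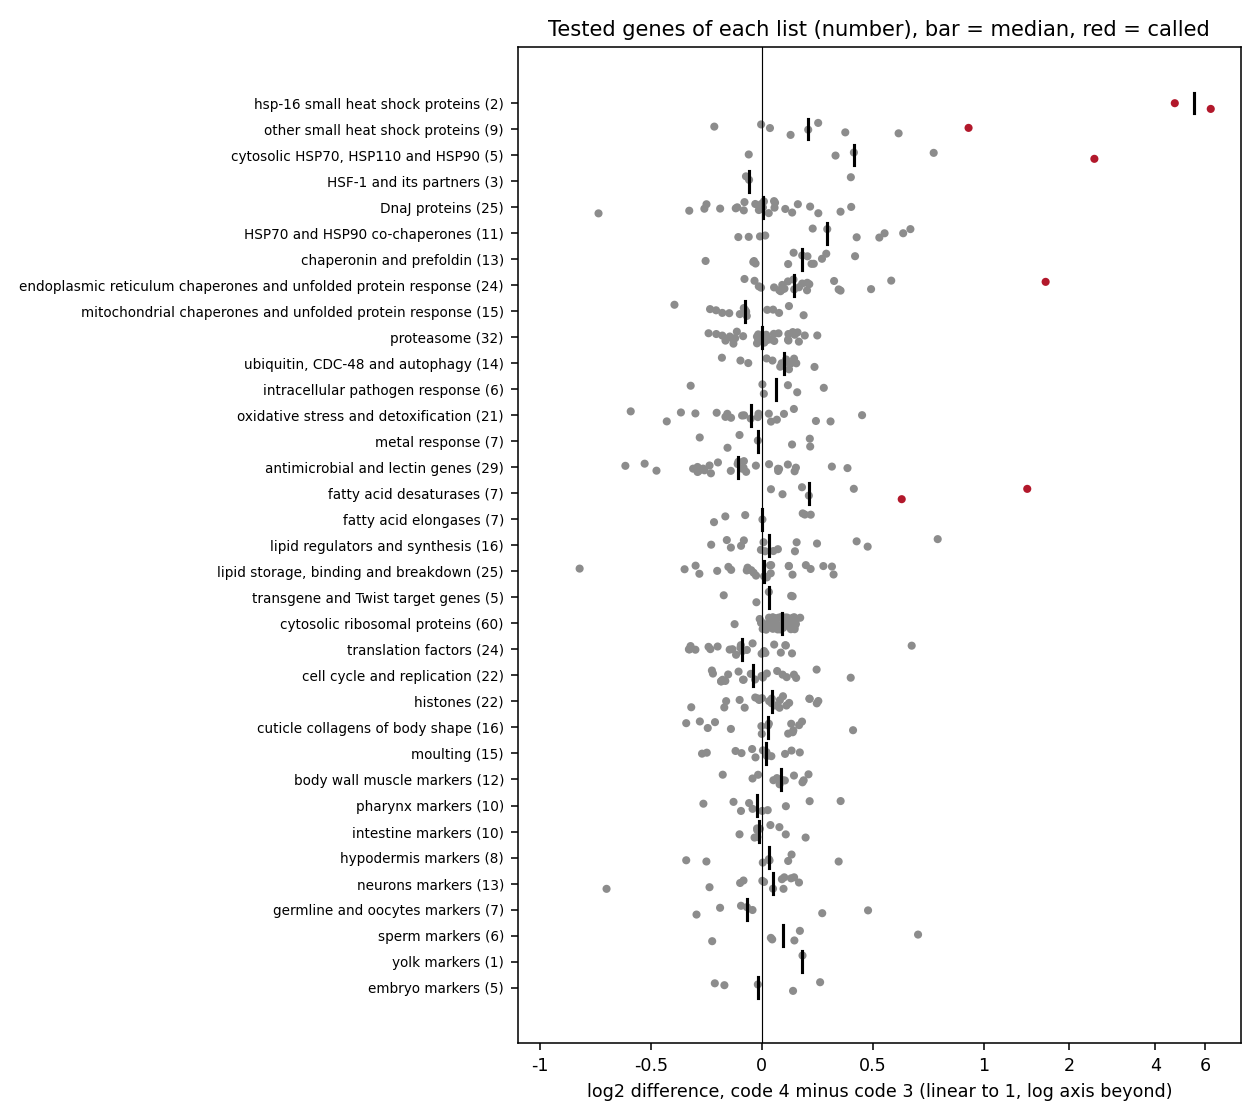
Log2 difference between code 4 and code 3 for the tested genes of each gene list (1 point per gene, its brightest probe set), with the list medians, on an axis that is linear near 0 and logarithmic beyond. The hsp-16 genes lie at 4.68 and 6.26, the medians of the other lists lie between -0.11 and 0.41, and the proteasome genes stay between -0.24 and 0.25.

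Besides chaperones, 2 fatty acid desaturase genes rose. fat-5 and fat-6 encode enzymes that put the first double bond into palmitic and stearic acid. fat-5, on chromosome V, read 343.7, 781.9 and 342.7 at code 3 and 1310.0, 1582.3 and 855.1 at code 4. The set 2 array was the highest of its code in both groups, which did not overlap. The log2 rise was 1.42 ± 0.20, or 2.68-fold (limma adjusted p = 0.00927). fat-6, on chromosome IV, read 7527.6, 7216.3 and 7407.4 and then 12234.6, 9897.2 and 12328.6. Its code 3 arrays were close to each other, and the log2 rise was 0.63 ± 0.09, or 1.55-fold (limma adjusted p = 0.013). The other 5 desaturase genes did not pass. fat-7, whose enzyme resembles that of fat-6, had 0.41 ± 0.19 with overlapping groups, fat-3 had 0.21, fat-1 0.18, fat-4 0.09 and fat-2 0.04. All 7 were higher at code 4 by their fitted difference, 4 of them in all 3 sets, and the median was 0.21.

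Other lipid genes were divided. nhr-80, a nuclear hormone receptor needed for normal expression of such desaturases, read 142.4, 267.0 and 136.5 at code 3 and 247.2, 395.7 and 275.9 at code 4, a log2 difference of 0.79 ± 0.20 that did not pass (limma adjusted p = 0.299). pod-2, the acetyl-CoA carboxylase gene, had 0.48 ± 0.15 (limma adjusted p = 0.526). These were the only 2 of 16 lipid regulator and synthesis genes with an unadjusted p under 0.05, and the list's median was 0.03. The 7 fatty acid elongase genes had a median of 0.002, with 4 higher. plin-1 encodes perilipin, which coats lipid droplets, and has 3 tested probe sets. On 1 of them it read 534.5, 695.8 and 548.8 at code 3 and 1014.9, 1030.6 and 886.9 at code 4, with no overlap, a log2 rise of 0.73 ± 0.12 (limma adjusted p = 0.0455). The other 2 gave 0.32 ± 0.11 and 0.42 ± 0.16 and did not pass (limma adjusted p = 0.569 and 0.598), so the probe sets differ on the size. Of 25 lipid storage, binding and breakdown genes 13 were higher and 12 lower.

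wbp-2 on chromosome II, named for a protein that binds WW domains, read 325.8, 333.6 and 460.0 at code 3 and 619.8, 493.6 and 731.1 at code 4. The groups were just apart, and the log2 rise was 0.72 ± 0.13 (limma adjusted p = 0.0491). A probe set of 2 genes with no function given here read 3050.7, 2682.2 and 4216.7 and then 7831.3, 5771.6 and 8385.9, a log2 rise of 1.15 ± 0.16 (limma adjusted p = 0.00927).

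The 4 probe sets that fell changed by less than the hsp-16 genes. Of the nspb family (nematode-specific peptides, group B, with no role given here), 2 probe sets, each listed for 2 genes, passed. The first, marked (a), read 1213.3, 1968.2 and 2011.0 at code 3 and 687.9, 1036.7 and 979.0 at code 4. It fell by 0.93 on the log2 scale, with an SE of 0.13 (limma adjusted p = 0.00927). The second, marked (b), read 1288.9, 1934.0 and 1961.2 and then 744.8, 1091.8 and 1123.7. It fell by 0.81 with an SE of 0.12 (limma adjusted p = 0.0103). Set 1 was the lowest of its code in both probe sets, and the groups did not overlap. The other 5 probe sets of the family did not pass: nspb-6 had -0.78 (limma adjusted p = 0.0822), a probe set of 5 nspb genes -0.62, nspb-10 -0.39, nspb-12 -0.24 and nspb-11 -0.05. Members of the family resemble each other, so probes of 1 may bind transcripts of another.

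K08D12.3 on chromosome IV read 3372.7, 2988.1 and 4467.5 at code 3 and 1805.2, 1768.9 and 2630.1 at code 4, with no overlap, and fell by 0.81 on the log2 scale with an SE of 0.13 (limma adjusted p = 0.0234). A second probe set of the gene had -0.51 ± 0.12 and did not pass (limma adjusted p = 0.222). lips-6, a gene of the lipase-related family on chromosome IV, read 274.1, 218.5 and 710.2 at code 3 and 114.6, 104.1 and 184.7 at code 4. The set 3 array was the highest of its code in both groups, and the gene fell by 1.42 with an SE of 0.25 (limma adjusted p = 0.0497), the call nearest the threshold. It passed the brightness filter only through its 3 code 3 arrays.

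Next after the called genes came 10 that were higher and 10 that were lower at code 4 without passing, taken by the smallest p among genes with separate groups and 1 direction in all sets. On the higher side, hlh-12, a bHLH transcription factor gene, read 152.5, 35.7 and 43.2 at code 3 and 285.9, 158.8 and 238.0 at code 4, a log2 difference of 1.84 ± 0.39 at low signal (limma adjusted p = 0.166). hlh-12 passed the brightness filter only through the code 4 arrays of sets 1 and 3 and the array titled 2_2 (2), which was not fitted. lido-8 had 1.71 ± 0.39, F15B9.6 0.87, anmt-3 0.86, F07C3.9 0.71, C09E7.4 0.66, slc-9B.1 0.62, aly-2 0.62, ZK662.2 0.61, and ufm-1, a ubiquitin-like modifier, 0.54. Their limma adjusted p lay between 0.145 and 0.32. In the HLH strain 8 of the 10 had the same direction, while hlh-12 had -0.43 ± 0.45. lido-8 read 60.8, 20.7 and 40.6 at code 3 and 157.4, 100.2 and 113.1 at code 4. These signals lie below the median of each marker array, so lido-8 passed the brightness filter only through HLH arrays. With values under the 25th percentile (65.8) raised to it, the log2 difference was 0.88 for lido-8 and 1.34 for hlh-12.

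On the lower side the first was dnj-13, given above, followed by fkb-5, a gene for an FKBP-type prolyl isomerase, at -0.72 ± 0.13 (limma adjusted p = 0.0778). erfa-1, the gene for the translation release factor eRF1, had -0.71 ± 0.15, and eat-4, the vesicular glutamate transporter of neurons, had -0.70 ± 0.16. The others were gmap-3 at -0.85, nspb-6 at -0.78, K01D12.9 at -0.76, srdh-1 at -0.61, R06C1.4 at -0.54 and Y16B4A.2 at -0.45. The limma adjusted p of the 10 lay between 0.0585 and 0.222.

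Across all tested probe sets the response was narrow. Code 4 was higher for 50.7% of them. The log2 differences had a median of 0.003 and an SD of 0.238, and 96.9% lay within 0.5 of 0. A difference beyond 1 was seen for 20 probe sets that were higher and 10 that were lower, beyond 2 for 7 higher and 0 lower, and beyond 3 for 6 higher. Those 6 are the 4 hsp-16 probe sets and the 2 shared by the Hsp70-type genes. Their summed signal was 2426.0, 1306.9 and 1207.5 at code 3 and 32370.1, 20891.4 and 30421.4 at code 4, which is 0.016%, 0.009% and 0.008% of all signal on the code 3 arrays and 0.204%, 0.139% and 0.189% on the code 4 arrays. An unadjusted p under 0.05 was reached by 893 probe sets (7.24%), with 440 higher (3.57%) and 453 lower (3.67%).

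Errors were larger for dim probe sets. When tested probe sets were divided by mean signal into 4 classes of equal size, the median SE of the log2 difference was 0.205 in the dimmest and 0.128 in the brightest class. The number of arrays limits the precision throughout.

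**Figure D3:**
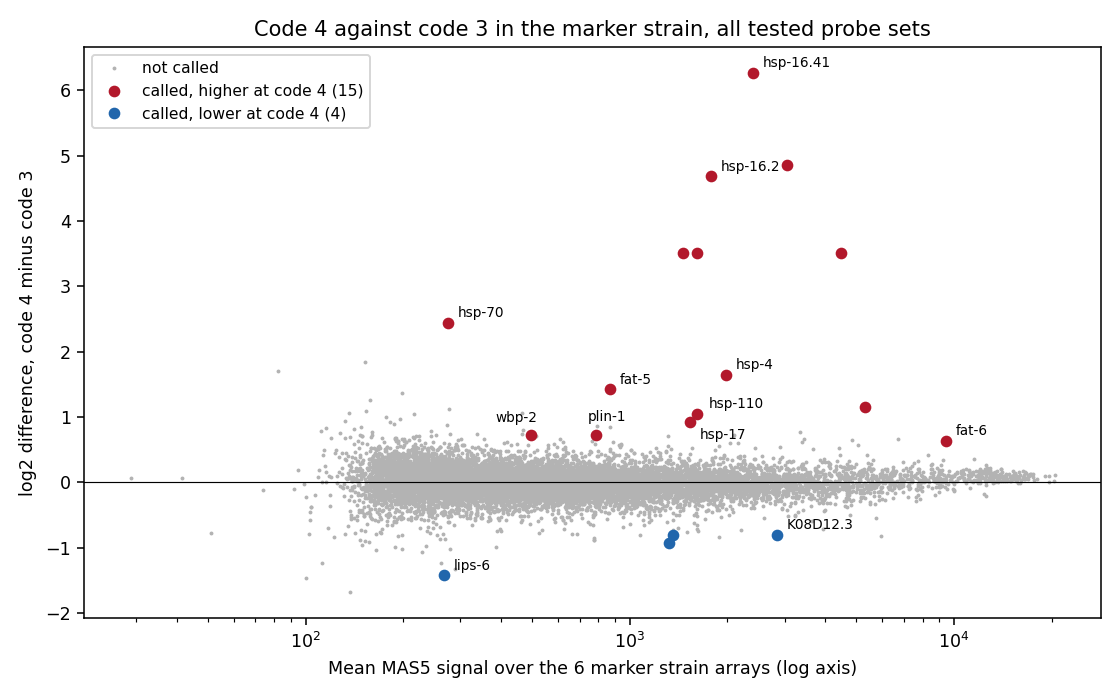
Log2 difference, code 4 minus code 3, of each tested probe set (y axis) against its mean signal on the 6 marker arrays (x axis, log scale), with called probe sets in colour and those of 1 gene named. Most points lie within 0.5 of 0, and the hsp-16 and Hsp70-type probe sets stand above 3.

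The paired differences of the 3 sets were compared over all tested probe sets. Over the tested probe sets, Pearson's r between the paired log2 differences was 0.193 for sets 1 and 2, 0.281 for sets 1 and 3, and 0.144 for sets 2 and 3. Without the 19 called probe sets, which a test on these same sets had selected, it was 0.103, 0.211 and 0.049. These are descriptions across 12328 probe sets of the same 6 arrays, which are not independent of each other. Of the 15 probe sets that rose, the smallest rise was in set 2 for 8, in set 1 for 5 and in set 3 for 2. For hsp-16.2 the paired log2 differences were 4.4, 4.1 and 5.5, and for hsp-16.41 they were 5.7, 6.6 and 6.5, so no set was the lowest for both. For fat-5 they were 1.93, 1.02 and 1.32.

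**Figure D4:**
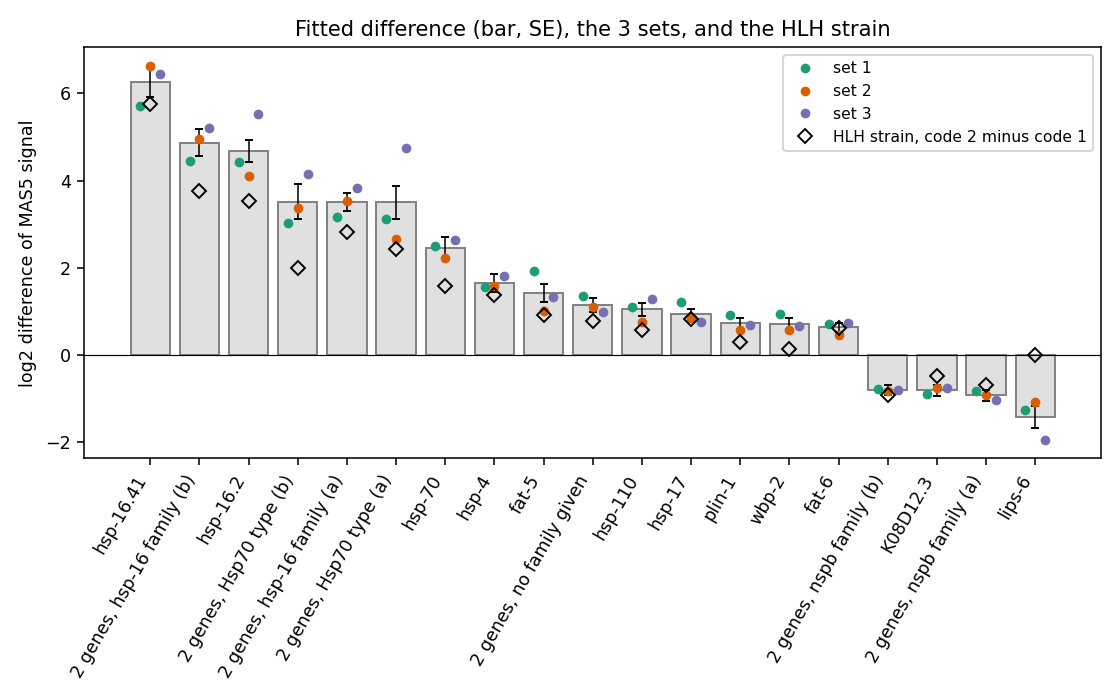
Log2 difference, code 4 minus code 3, for the called probe sets: bars give the fitted difference with its SE, coloured points the 3 sets, and open diamonds the fitted difference of code 2 minus code 1 in the HLH strain. All 3 coloured points of every probe set lie on 1 side of 0, and for hsp-16.2 they lie at 4.4, 4.1 and 5.5.

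The calls differed in how far they rested on the set as a term of the model and on single arrays. Without the set term, on the same 11 arrays or on all 12, the same 7 of the 19 were called: hsp-16.41, hsp-16.2, both other hsp-16 probe sets, hsp-70 and both probe sets of the Hsp70-type pair. With any 1 of the 6 marker arrays left out, these 7 and hsp-4 stayed called in all 6 fits. plin-1, wbp-2, lips-6, K08D12.3 and the second nspb probe set were called in 0 of the 6, fat-6 and hsp-110 in 1, and fat-5 and hsp-17 in 2. With a whole set left out, the 4 hsp-16 probe sets were called in all 3 fits, with a highest limma adjusted p of 0.00355. hsp-70, the Hsp70-type pair and hsp-4 were called in 2 of 3. Without the filter on dim probe sets, every chaperone call was lost. hsp-16.41 and hsp-16.2 then had a limma adjusted p of 0.0576 each, and the second nspb probe set was the only one called (limma adjusted p = 0.0497). That fit holds 706 probe sets at the floor on all its arrays, and without those the 4 hsp-16 probe sets, hsp-70 and the second nspb probe set were called.

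Genes tied to the reporter, the marker or Twist activity did not pass the test in this strain. egl-15, the FGF receptor gene whose promoter drives the reporter, read 552.3, 782.1 and 360.1 at code 3 and 526.5, 539.3 and 382.9 at code 4, a log2 difference of -0.17 ± 0.18 (limma adjusted p = 0.882). hlh-8, the nematode Twist gene, read 144.0, 134.5 and 152.7 and then 151.2, 130.0 and 200.7, a difference of 0.14 ± 0.22. arg-1, a Notch ligand gene and Twist target, had 0.13 ± 0.24, hlh-2, the E/Daughterless partner gene, -0.02 ± 0.22, and rol-6 0.03 ± 0.12. The groups overlapped in each of the 5.

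Among other stress lists no gene was called. Of 29 antimicrobial and lectin genes 20 were lower at code 4, 10 in all 3 sets, with a median of -0.11. They included irg-3 at -0.62 ± 0.17, cnc-2 (a caenacin, an antimicrobial peptide) at -0.48 ± 0.19 and lys-1 (a lysozyme) at -0.29 ± 0.11. Their limma adjusted p lay between 0.431 and 0.611. Of 21 oxidative stress and detoxification genes 8 were higher and 13 lower, with a median of -0.05, and msra-1, a methionine sulfoxide reductase gene, had -0.59 ± 0.20 (limma adjusted p = 0.562). The intracellular pathogen response (6 genes) and metal response (7 genes) lists had medians of 0.06 and -0.02.

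Growth and cuticle lists also held no call. Of 60 cytosolic ribosomal protein genes 56 were higher at code 4, with a median of 0.09, but the median was 0.007 after quantile normalization, so the shift depends on the scaling. Of 24 translation factors 16 were lower, with a median of -0.09, and eif-3.C, a subunit of initiation factor eIF3, had -0.32 ± 0.13 (limma adjusted p = 0.626). Medians were -0.04 for 22 cell cycle and replication genes, 0.04 for 22 histone genes, 0.03 for 16 body-shape collagens and 0.02 for 15 moulting genes.

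Markers of cell types were taken from lists for 9 tissues and stages, and none of these lists held a called gene. The summed signal of all 12 body wall muscle markers was 75386 to 94350 at code 3 and 83323 to 99728 at code 4, and that of 10 of 12 intestine markers was 54956 to 79518 and 56809 to 81631. By set, the muscle sum was higher at code 4 in all 3 (90214 to 99728, 75386 to 83323 and 94350 to 98935). By gene, 6 of the 12 muscle markers were higher and 2 lower in all 3 sets. Their median log2 difference was 0.09, and 0.04 after quantile normalization, so its size depends on the scaling. For neurons, 13 of 14 markers summed to 22823 to 32160 and 22935 to 33553, with overlapping groups. The neuron sum was higher at code 4 in all 3 sets, in set 2 only from 22823 to 22935. By gene, 3 neuron markers were higher and 3 lower at code 4 in all 3 sets. For the pharynx, all 10 markers summed to 19567 to 24224 and 21414 to 22175, and for the hypodermis 8 of 10 markers summed to 26126 to 33098 and 27068 to 32222. Germline and oocyte markers passed the brightness filter for 7 of 14, sperm markers for 6 of 20, embryo markers for 5 of 12 and yolk genes for 1 of 6, and their sums overlapped between codes. In bulk RNA, fewer cells of a type and less RNA per cell cannot be told apart. The median signal was 180.3 to 200.8 on the code 3 arrays and 197.4 to 201.6 on the code 4 arrays. The ratio of 3' to 5' actin signal, a measure of RNA integrity, was 1.79 to 2.18 at code 3 and 1.59 to 2.13 at code 4, highest in set 2 at both. Within sets the actin ratio was lower at code 4 in all 3, from 1.79 to 1.786, from 2.176 to 2.132 and from 1.856 to 1.591. Other control transcripts were mixed. By set, the Gapdh ratio went from 1.294 to 1.321, from 1.533 to 1.347 and from 1.367 to 1.236. The catalase ratio also rose in set 1 (2.083 to 2.356) and fell in sets 2 and 3. The ubiquitin ratio went from 7.525 to 6.717, from 7.039 to 6.146 and from 6.193 to 6.812, so it was not highest in set 2. The part of these shifts in the gene results was not tested.

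The HLH arrays gave a comparison with the hlh constructs present, code 2 against code 1. All 19 probe sets called in the marker strain had the same direction there, and the fitted difference was larger in the marker strain for 18, which were chosen by their marker values. In the HLH strain 6 probe sets were called (0.0487%), of which 5 are among the 19: the 4 of the hsp-16 family and the second nspb probe set. The sixth was hlh-8, a gene of the HLH constructs, at 2.39 ± 0.26 there (limma adjusted p = 0.00128) against 0.14 ± 0.22 in the marker strain. hsp-16.41 rose by 5.77 ± 0.39 there and hsp-16.2 by 3.53 ± 0.29. hsp-70 had 1.57 ± 0.29, hsp-4 1.37 ± 0.23, fat-5 0.93 ± 0.23 and fat-6 0.62 ± 0.11, none of them past the test (limma adjusted p from 0.0905 to 0.266).

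The difference between the strains was tested directly. As the labels do not match codes across strains, the larger p of both matchings was taken. By it 0 of 12328 probe sets (0.0%) passed in limma, and 87 (0.706%) had an unadjusted p under 0.05. The smallest adjusted p was 0.241, that of hlh-8. The larger p is never below that of either matching, so the test is conservative. The lack of calls therefore does not show that the strains respond alike. Of the 19, which were chosen by their marker values, 7 had an unadjusted p under 0.05, and the smallest adjusted p among them was 0.9999. The lowest unadjusted p of the 19 was that of lips-6 (unadjusted p = 0.00265), with -1.42 ± 0.25 in the marker strain and -0.01 ± 0.29 in the HLH strain. Its signal was 72.8 to 152.7 on the 6 HLH arrays, below all 3 marker arrays of code 3. wbp-2 had 0.72 ± 0.13 in the marker strain and 0.13 ± 0.14 in the HLH strain (unadjusted p = 0.00885).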

How the data were processed

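Per the labels' protocols, total RNA from worm lysates was converted to biotin-labelled cRNA and hybridised to single-colour Affymetrix arrays. The deposited values are intensity on a linear scale, 1 signal per probe set and array. The submitters' processing notes name MAS5, with no version. MAS5 subtracts background, so ratios of low signals are noisy. The deposited scaling was kept.

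Signals under the 10th percentile (16.7) were set to that value before taking log2. The 77 control probe sets were left out. Testing covered 12328 of 22625 probe sets, those whose signal exceeded the array median on 3 or more of the 12 arrays. limma 3.58.1 in R 4.3.3 (lmFit, eBayes with trend) fitted 4 groups and the set number to 11 arrays, with 5 residual and 7.76 prior degrees of freedom. The array titled 2_2 (2) was left out of this fit, since it repeats a set number. Tests are two-sided, adjusted by Benjamini-Hochberg over all tested probe sets. Means ± SD are of linear signals, and ± beside a log2 difference is its SE. The labels call the replicates biological.

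Set numbers come from the titles. The set was used as a block because the comparison was defined as paired by set number. Deviations from group means correlated at 0.307 to 0.785 in all 15 pairs of arrays with the same set. In 30 pairs with different sets they correlated at -0.691 to 0.527, so the ranges overlap. Deviations within a group cancel out, so these correlations are not independent of each other and are given as a description.

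Of the 22625 probe sets, 20766 had 1 gene, 887 several and 972 none in the platform annotation. The WBcel235 gene table updated the symbols of 20701 of them by gene ID, leaving 65 under their platform names. Probe sets of several genes name no gene. Named genes are all called ones, the next 10 each way, all tested members of the heat shock, desaturase and transgene lists, and a few of smallest p from other lists. The comparison, lists and rules were chosen with earlier results of these data known. The fit was also run on simulated arrays with normal noise of the fitted spread. That run checks the code only and is no test of the noise of dim signals. Alternatives were the set term, the arrays fitted, floor, filter, quantile normalization, trend, and leaving out arrays or sets.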

Additional observations from a re-analysis of the deposited data

How the results depend on the processing

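All 19 called probe sets kept their direction in every alternative in which they were tested, while the count of calls depended on the model. Without the set as a replicate block, 7 were called on all 12 arrays and the same 7 on the 11 arrays of the main model, an alternative chosen after seeing the data. The 6 marker arrays alone gave 33 with the replicate block, of which 18 were among the 19, and 4 without it. Without the filter on dim probe sets 1 was called, the second nspb probe set, with every chaperone call lost, and the mean correlation between the paired differences of the 3 sets, 0.206 with the filter, was 0.0596. That fit holds 706 probe sets at the floor on all its arrays, and without them, an alternative chosen after seeing the data, 6 were called. eBayes without trend gave 12. Leaving out 1 marker array gave between 8 and 13 calls. Leaving out set 1 gave 4, set 2 gave 10 and set 3 gave 10, all higher at code 4. Between 17 and 19 were called with the uncertain array in set 3, a filter at 6 of 12 arrays, no floor, a floor at the 25th percentile, or quantile normalization. Over the 19 probe sets and the alternatives run, the call was kept in 225 cases and lost in 173, and the 20 next genes came to pass in 5. The difference between strains, by the conservative larger p of both matchings, gave 0 calls under all alternatives run. Signal limits the rest: in the dimmest of 4 signal classes of equal size the median SE was 0.205, larger than in the others, so small differences there were less likely to be called.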

Other observations

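The 12 called genes were also set against their neighbours in gene order, up to 2 protein-coding genes to each side. Apart from the adjacent hsp-16.2 and hsp-16.41, 23 tested neighbours had log2 differences between -0.44 and 0.41 and none passed limma's test (lowest adjusted p = 0.455).

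Levels differed between sets at both codes in some gene groups. The set 2 array was the lowest of its code for 59 of 60 ribosomal protein genes at code 3 and for 58 at code 4, and for 9 and 10 of 13 chaperonin and prefoldin genes. Over all 9418 tested genes it was the lowest for 36.7% and 37.2%. Body wall muscle markers were lowest in set 2 for 12 of 12 at code 3 and 11 at code 4. These values are descriptions, with no test.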
